A study of Ovis aries with 20 samples.

Results

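The pancreas of CFTR-/- sheep fetuses was compared between a later stage of gestation, 100 and 120 days, and an early stage, 65 and 80 days. The comparison holds 8 of the 20 RNA-seq libraries of the series, namely 4 later and 4 early ones with 2 animals at each age, and 17387 of 24478 genes had enough reads to be tested. All 8 fetuses carried the CFTR-/- genotype and were made by somatic cell nuclear transfer from a single male American Romney fibroblast line that had been edited in exon 2 of CFTR, so that both sides of the comparison share the genotype, the clone of origin and the cloning. No animal received a treatment, and each library is bulk RNA of pancreas tissue from 1 animal. The WT fetuses used beside them, 4 at 65 and 80 days and 4 at 100 and 120 days, were bred and not cloned. The labels give the 2 animals of 65 days, and likewise those of 80 days, numbers with a common stem. The relation of these animals beyond the shared clone is not given in the sources used here. Each side pools 2 ages, so p-values measure the spread between animals together with the spread between the 2 ages of a side.

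During gestation the pancreatic epithelium passes from proliferating progenitors to acinar cells, which make and store digestive enzymes, ducts, which carry them, and endocrine islets. Acinar maturation brings a large secretory apparatus, with ribosomes on the endoplasmic reticulum (ER), the translocon that threads new proteins into it and the chaperones of the unfolded protein response. CFTR is a chloride and bicarbonate channel of duct cells, and its loss leads to plugged ducts, damage to acini and fibrosis, which in cystic fibrosis starts before birth.

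CFTR itself had 50.4 and 50.7 CPM (reads of the gene per 1000000 counted reads, scaled by the TMM factors) in the animals of 65 days (d65), 35.0 and 49.7 (d80), 22.9 and 28.8 (d100) and 13.9 and 32.6 (d120). All 4 later libraries lay below the 4 early ones, with means of 24.6 ± 8.12 against 46.5 ± 7.66 CPM (SD, n = 4 each) and a log2 fold change of -0.92 ± 0.26 (SE). These counts span the whole gene (chr4:50644000-50864925, Oar_v4.0), while the edit lies in exon 2, so the level does not check the genotype. In the WT libraries CFTR stood at 31.1 to 38.6 CPM early and 15 to 30.9 later.

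Total counts ran from 35973948 to 64947692 per library, and 1 count was worth 0.0112 to 0.0251 CPM. The library of animal 2 (d100) stood apart from the other 7. It had the lowest total, a first principal component of -198.8 against -2.92 to 64.85 (48.5% of the variance), and a median correlation of 0.844 with the others, against 0.913 to 0.951 among them. The acinar enzyme genes summed to 5157 CPM in it, below all 4 early animals, and marker genes of T cells and adipocytes were over its neighbours, as detailed further below. The same animal label is given to this library and to WT animal 1 of 65 days, and the 2 were kept in the groups that their titles give. The main counts over all genes and the list medians on which the text turns are therefore given with and without this animal, and the calls of DESeq2 and of the likelihood ratio test and the counts shared with WT with it only. The second component (22.8% of the variance) was highest at 65 days, with 76.2 and 80.1 (d65), -9.94 and 29.1 (d80), -59.7 and -20.7 (d100) and -22.8 and -72.4 (d120).

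With all 8 libraries, 0 of 17387 genes (0.0%) passed an adjusted p of 0.01 with a fold change of 1.5 in the edgeR quasi-likelihood test, the smallest adjusted p being 0.251. The count under an unadjusted p of 0.05 was 2046 (11.8%), of which 1041 (5.99%) were higher and 1005 (5.78%) lower at the later stage. At an unadjusted p of at most 0.01 with the fold limit there were 530 (3.05%), 246 (1.41%) of them higher and 284 (1.63%) lower. The likelihood ratio test of edgeR called 47 genes (0.27%), 21 (0.121%) higher and 26 (0.15%) lower, and the Wald test of DESeq2 called 103 (0.592%), 48 (0.276%) higher and 55 (0.316%) lower, with 42 genes called by both. In 1052 genes (6.05%) the 4 later and the 4 early libraries did not overlap, 466 (2.68%) with the later ones higher and 586 (3.37%) with them lower. Without the 100-day animal 2 the genes without overlap numbered 3119 (17.9%), of which 1755 (10.1%) were higher and 1364 (7.84%) lower, although 3 against 4 libraries also separate more readily. The count at an unadjusted p of at most 0.01 was then 1444 of 17801 genes (8.11%), 813 (4.57%) higher and 631 (3.54%) lower, and 3816 (21.4%) had an unadjusted p under 0.05. In that fit 1 gene, DERL3, passed the adjusted limit (0.00562%), and 8 passed at an adjusted p of 0.05 with the fold limit (0.0449%). In the text that follows, higher and lower describe measured values, and a gene is said to have passed a test only where the test is named.

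The leading genes are the 12 in each direction with the smallest p among those whose groups did not overlap. Of the 12 that were higher, 11 passed the DESeq2 Wald test and 8 the likelihood ratio test. Of the 12 that were lower, 12 passed the first and 11 the second. These tests use the same contrast by which the genes were ordered.

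**Figure D1:**
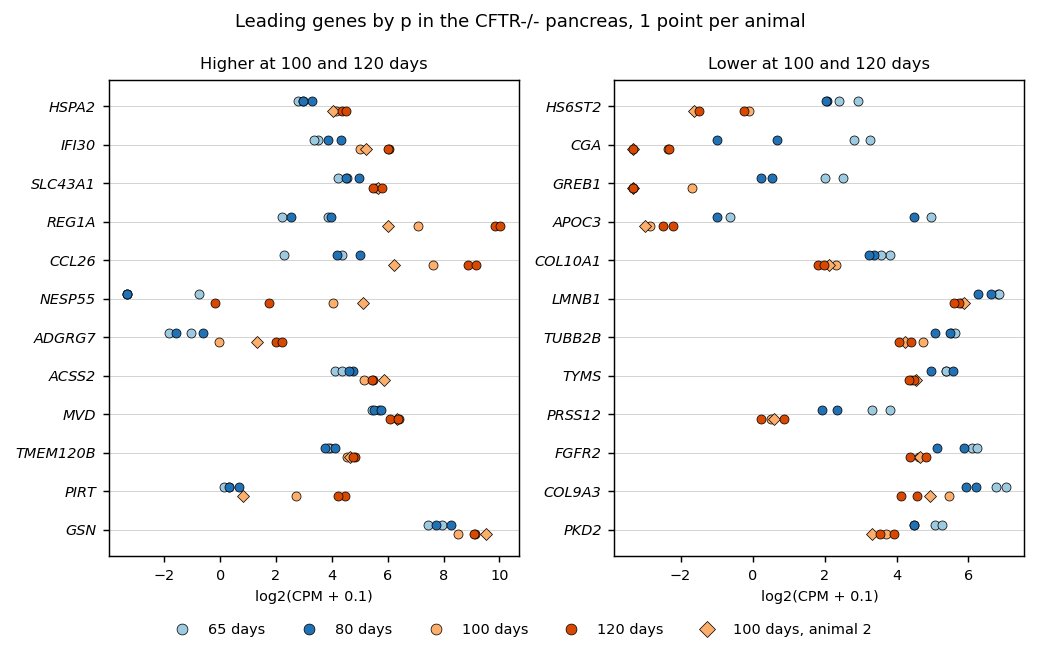
Level of the 24 leading genes in each CFTR-/- animal, as log2(CPM + 0.1) on the horizontal axis, with early animals in blue and later ones in orange. Diamonds mark the 100-day animal 2, which lay with the other later animals for all 24 genes, since the genes were chosen for groups that do not overlap.

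HSPA2, a chaperone of the HSP70 family (chr7:73550328-73554215, Oar_v4.0), led the genes that were higher, with 6.75 and 7.75 CPM (d65), 9.59 and 7.73 (d80), 17.8 and 16.2 (d100) and 20.4 and 22.8 (d120). The 4 later animals lay within 7 CPM of one another, and their mean was 2.42 times the early one, with a log2 fold change of 1.28 ± 0.20 (SE). IFI30, a lysosomal thiol reductase of antigen processing, had 10.3 to 20.1 CPM early and 31.8 to 65.3 later, the 120-day animals being the highest. SLC43A1, a transporter of large neutral amino acids, ran at 18.5 to 31.0 CPM early and 44.7 to 55.1 later. Both groups of this gene were narrow, with SDs of 5.22 and 4.47 CPM, and the 100-day animal 2 lay inside the later range.

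REG1A, a secreted protein of acinar cells (chr3:49813746-49815890, Oar_v4.0), had 14.6 and 4.52 CPM (d65), 15.5 and 5.65 (d80), 136 and 65.0 (d100) and 925 and 1044 (d120). The lowest later animal was thus over 4 times the highest early one, and the 120-day animals held most of the later mean of 543 ± 513 CPM. Its log2 fold change was 5.75 ± 0.97 (SE), and 6.13 without the 100-day animal 2. CCL26, an eotaxin-type chemokine, followed the same order of ages, with 4.73 to 32.4 CPM early, 197 and 74.1 (d100) and 469 and 573 (d120). PIRT, a regulator of TRP channels, had 1.01 to 1.48 CPM early, 6.45 and 1.66 (d100) and 22.0 and 18.7 (d120). In all 3 genes the 100-day animal 2 was the lowest later animal and still above the early range.

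ADGRG7, an adhesion G protein-coupled receptor, stood at 0.182 to 0.559 CPM early and 0.878 to 4.53 later, a log2 fold change of 3.09 ± 0.60 (SE). GSN, the actin-severing protein gelsolin, had 173 to 307 CPM early and 363 to 737 later, with the 100-day animal 2 the highest. TMEM120B, a transmembrane protein, had 13.4 to 17.3 CPM early and 23.2 to 28.6 later. NESP55, a granin-like protein of the imprinted GNAS locus, had 35 reads in 1 early animal and 0 in the other 3, against 845 and 1381 reads (d100) and 163 and 33 (d120). Its later animals spanned 0.771 to 34.7 CPM, DESeq2 gave it an adjusted p of 0.0896, and its reads may be shared with the overlapping GNAS gene. In the WT libraries of these ages it stood at 7.85 to 54.3 CPM.

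HS6ST2, which adds sulfate to heparan chains (chrX:96579367-96953691, Oar_v4.0), led the genes that were lower, with 7.51 and 5.16 CPM (d65), 4.08 and 4.04 (d80), 0.840 and 0.226 (d100) and 0.258 and 0.747 (d120). The early mean was 9.88 times the later one, and the log2 fold change was -3.30 ± 0.48 (SE). CGA, the common alpha chain of glycoprotein hormones (chr8:49862512-49880903, Oar_v4.0), had 9.43 and 6.92 CPM (d65), 1.51 and 0.401 (d80), and at most 0.0992 later. In 2 of the 4 later libraries CGA had 0 reads, and in the other 2 it had 5 each. GREB1, a gene induced by oestrogen receptor, had 5.56 and 3.91 CPM (d65), 1.07 and 1.37 (d80), and 0 reads in 3 later libraries with 11 reads in the fourth. For these last 2 genes the 65-day animals were highest and the 80-day animals lay between them and the later ones.

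APOC3, a liver and gut apolipoprotein, was lower in all later animals at 0.0251 to 0.117 CPM, but its early levels were 0.547 and 31.1 (d65) and 0.408 and 22.4 (d80). It was therefore high in 1 animal of each early age, and the markers of liver described below were high in those same animals. COL10A1, a network-forming collagen, had 9.34 to 14.1 CPM early and 3.41 to 4.91 later. COL9A3, a fibril-associated collagen, had 61.3 to 131 CPM early and 17.4 to 44.0 later, and its lowest values were those of the 120-day animals. LMNB1, lamin B1 of the nuclear envelope, had 76.6 to 115 CPM early and 48.1 to 58.3 later. TUBB2B, a beta tubulin of immature cells, had 33.6 to 49.2 early and 16.7 to 26.6 later, in a family whose close copies can share reads.

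FGFR2, the receptor through which FGF10 drives growth of pancreatic progenitors, had 68.4 and 75.2 CPM (d65), 35.1 and 58.8 (d80), 24.7 and 25.3 (d100) and 20.5 and 28.2 (d120). The later animals lay within 8 CPM of one another, and the log2 fold change was -1.27 ± 0.23 (SE). PKD2, the cation channel polycystin 2 of cilia and ER, had 22.2 to 38.7 CPM early and 9.81 to 15.2 later. PRSS12, a secreted serine protease also called neurotrypsin, had 3.73 to 14.1 CPM early and 1.07 to 1.73 later.

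Gene lists of pathways and cell types were read by the share of members above or below 0 and by their median log2 fold change, beside 0.03 over all genes tested and -0.01 without the 100-day animal 2. Over all genes, 52.6% had a log2 fold change above 0. In bulk tissue, fewer cells of a type and less RNA per cell cannot be told apart, and none of the list values was tested as a list.

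**Figure D2:**
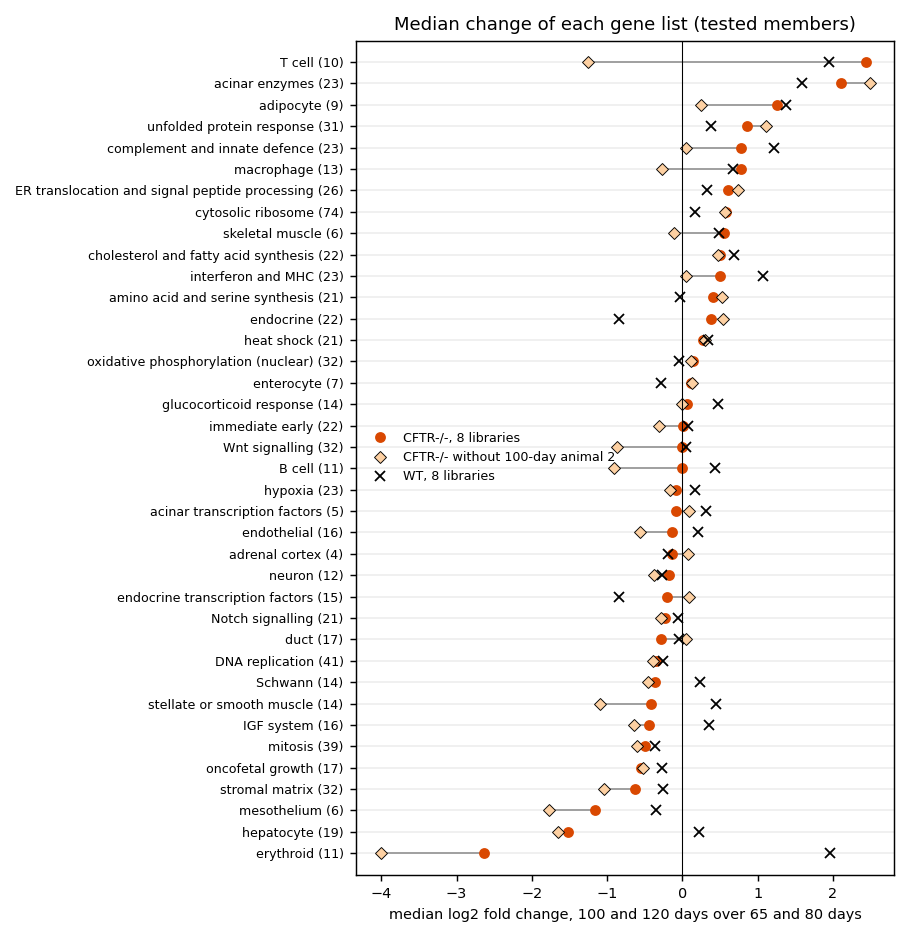
Median log2 fold change, later over early, of the tested members of 38 gene lists, with the number of members in brackets. Orange circles are the 8 CFTR-/- libraries, pale diamonds the same without the 100-day animal 2 and crosses the 8 WT libraries. The T cell list moved from 2.44 to -1.26 when that animal was left out, and the acinar enzyme list from 2.10 to 2.49.

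Digestive enzymes and other acinar products had 22 of 23 tested members above 0 and a median of 2.10, from CTRL at -0.07 to REG1A at 5.75. In the quasi-likelihood test 0 of them passed, and 9 stood at an unadjusted p of at most 0.01 with the fold limit (1.41% of all genes in this direction). DESeq2 called PRSS2, CTRB1, PLA2G1B, REG1A and ZG16, against 0.276% of all genes in this direction. Only REG1A had groups that did not overlap with all 8 libraries, while without the 100-day animal 2 the number was 22 of 23, against 10.1% of all genes. That animal was set apart partly by its low acinar sum, and 13 of the 23 genes were lowest in it. The second count thus follows in part from that choice. Their summed level was 15600 and 11600 CPM (d65), 35890 and 22800 (d80), 66240 and 5157 (d100) and 122300 and 129300 (d120). Apart from the 100-day animal 2 the sums thus lay in the order of age. The trypsin, chymotrypsin and elastase genes are families whose members can share reads, and 7 listed enzymes had no gene of that name in the tables.

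PRSS2, a trypsinogen, had 332 and 177 CPM (d65), 1301 and 644 (d80), 3701 and 471 (d100) and 7958 and 10042 (d120). CEL, the bile salt-dependent lipase, had 3192 and 2489 CPM (d65), 6553 and 4538 (d80), 9174 and 704 (d100) and 19215 and 17476 (d120). CELA3B, an elastase, had 985 and 788 CPM (d65), 3050 and 2334 (d80), 5191 and 296 (d100) and 4852 and 7331 (d120). The 100-day animal 2 lay within the early range for PRSS2 and below it for the other 2, and the log2 fold changes were 3.18 ± 0.93, 1.47 ± 0.90 and 1.30 ± 0.81 (SE) in that order. ZG16, a lectin of zymogen granules, had 4.11 to 11 CPM early, 40.2 and 5.11 (d100) and 155 and 196 (d120). CTRB1, a chymotrypsinogen, had 10.3 to 35.8 CPM early, 142 and 14.3 (d100) and 354 and 553 (d120). SPINK1, the trypsin inhibitor that acinar cells make with the enzymes, had 86.4 and 64.7 CPM (d65), 263 and 291 (d80), 535 and 155 (d100) and 597 and 812 (d120).

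**Figure D3:**
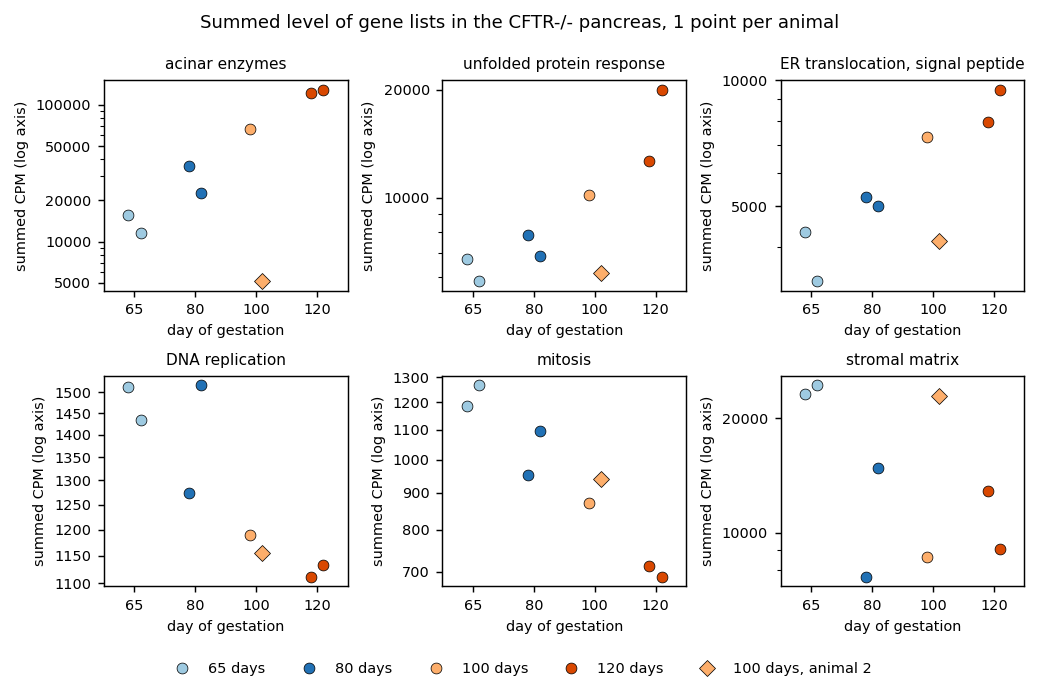
Summed CPM (log axis) of 6 gene lists in each CFTR-/- animal against day of gestation, with the 100-day animal 2 as a diamond. Acinar enzymes were highest at 120 days (122300 and 129300 CPM) and lowest in the 100-day animal 2 (5157 CPM), the mitosis list was lowest at 120 days (712.5 and 689.2 CPM), and the stromal matrix list was highest at 65 days and in the 100-day animal 2.

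Genes of the secretory apparatus went the same way. The unfolded protein response list had 25 of 31 members above 0, with a median of 0.86, and 1.11 without the 100-day animal 2. Groups did not overlap in 4 of 31 members, HSP90B1, DNAJB11, SDF2L1 and MANF, against 2.68% of all genes in this direction, and in 20 without that animal, against 10.1%, all of them higher. As 14 of the 31 were lowest in that animal, the second count follows in part from leaving it out. SDF2L1, an ER chaperone cofactor (chr17:71342577-71344690, Oar_v4.0), had 16.4 and 7.61 CPM (d65), 26.8 and 17.3 (d80), 78.1 and 32.1 (d100) and 86.1 and 196 (d120). Its log2 fold change was 2.53 ± 0.54 (SE), and it was the only 1 of the 31 members that DESeq2 called, against 0.276% of all genes in this direction. SYVN1, the ubiquitin ligase of ER-associated degradation, had 43.4 to 68.5 CPM early and 56.0 to 179 later, and DNAJC3, an ER co-chaperone, had 53.9 to 77.9 early and 61.2 to 263 later. In both genes the 100-day animal 2 lay in the early range and the other 3 later animals above it. XBP1, the transcription factor of the unfolded protein response and of acinar secretion, had 357 to 693 CPM early, 258 in the 100-day animal 2 and 855 to 1437 in the others.

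DERL3, a subunit of the channel that exports misfolded proteins from the ER, was on no list and was singled out after its values were seen. It had 1.25 and 1.07 CPM (d65), 2.05 and 2.14 (d80), 18.1 and 2.11 (d100) and 40.7 and 34.0 (d120). The 100-day animal 2 lay within the early range. With it the log2 fold change was 3.87 ± 0.74 (SE), and without it 4.26, with an adjusted p of 0.00628 in the quasi-likelihood test, which was the smallest of that fit. Over all alternatives the adjusted p of DERL3 ran from 1.66e-05 to 1.0.

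The list of ER translocation and signal peptide processing had 25 of 26 members above 0, from SEC11A at -0.01 to SEC11C at 1.38, with a median of 0.60. Groups did not overlap for 2 of 26, SEC62 and SRP68, against 2.68% of all genes, and for 22 without the 100-day animal 2, against 10.1%. The median was then 0.74. That animal was the lowest for 10 of the 26, so the count of 22 follows in part from leaving it out. SRP68, of the signal recognition particle, had 88.6 to 135 CPM early and 157 to 215 later, and SEC62, of the translocon, had 190 to 290 early and 338 to 497 later. For these 2 genes the 100-day animal 2 lay inside the range of the other later animals. All 74 tested genes of the cytosolic ribosome were above 0, between 0.27 and 0.82 with a median of 0.58. Yet 0 of them stood at an unadjusted p under 0.05, against 5.99% of all genes in this direction. Only RPL29 had groups that did not overlap, against 2.68% of all genes in this direction. Summed ribosomal protein levels were 136300, 75050, 154000 and 207100 CPM in the early animals and 226300, 202000, 177400 and 241700 in the later ones. The 2 groups overlapped, and the lowest value was that of animal 2 (d65). RPLP2 and RPS21, of the large and the small subunit, had log2 fold changes of 0.78 ± 0.36 and 0.78 ± 0.38 (SE).

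Genes of cholesterol and fatty acid synthesis had 20 of 22 members above 0, with a median of 0.50 that was 0.47 without the 100-day animal 2, and 11 of them stood at an unadjusted p under 0.05 with higher values, against 5.99% of all genes. MVD, which makes isopentenyl diphosphate in the mevalonate pathway, had 51.4 and 43.3 CPM (d65), 45.1 and 54.1 (d80), 84.7 and 80.5 (d100) and 67.5 and 82.7 (d120). The later mean was 1.63 times the early one, and the log2 fold change was 0.70 ± 0.14 (SE). MVD was the only 1 of the 22 members that DESeq2 called, against 0.276% of all genes in this direction. FDPS, the farnesyl diphosphate synthase, had 39.3 to 42.9 CPM early and 47.4 to 70.9 later. CYP51A1, which demethylates lanosterol, had 24.4 to 41.8 early and 44.1 to 62.2 later. ACSS2, which makes cytosolic acetyl-CoA and is one of the 24 leading genes, had 17.2 to 26.9 CPM early and 35.3 to 58.3 later.

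Amino acid and serine synthesis genes had 17 of 21 members above 0 with a median of 0.41, and 0.52 without the 100-day animal 2. BCAT2, the mitochondrial branched-chain aminotransferase, had 20.6 to 42.4 CPM early, 63.6 and 30.9 (d100) and 96.5 and 117 (d120). SHMT2, of mitochondrial serine metabolism, had 38.8 to 61.9 CPM early and 59.3 to 70.6 later, and the cystine transporter SLC7A11 had 0.0982 to 0.549 early and 0 to 3.76 later. In each of these 3 genes the groups overlapped. KLF9 and HSD11B1, a target of glucocorticoid receptor and the enzyme that regenerates cortisol, had 2.50 to 7 and 1.42 to 3.03 CPM early and 6.36 to 21.8 and 1.33 to 13.8 later, while their list had 8 of 14 members above 0 and a median of 0.06.

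Proliferation genes were lower at the later stage. The DNA replication list had 35 of 41 members below 0 with a median of -0.35, and its groups did not overlap in 13, all of them lower, against 3.37% of all genes. Without the 100-day animal 2 the median was -0.39 and 19 members did not overlap, against 7.84% of all genes. The mitosis list had 38 of 39 below 0 with a median of -0.50, INCENP at 0.07 being the exception. In 9 members the groups did not overlap, against 3.37% of all genes. Without the 100-day animal 2 the median was -0.60 with 19 members that did not overlap, against 7.84% of all genes. The summed mitosis level was 1184 and 1266 CPM (d65), 951 and 1094 (d80), 871.3 and 941.4 (d100) and 712.5 and 689.2 (d120). These sums lay in the order of age without overlap between the stages, and the 100-day animal 2 lay close to the other animal of its age.

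TYMS, the thymidylate synthase, had 41.1 and 41.3 CPM (d65), 30.8 and 47.5 (d80), 20.9 and 23.1 (d100) and 22.2 and 20.1 (d120). The early mean was 1.86 times the later one, with a log2 fold change of -0.90 ± 0.16 (SE). GINS4, of the replicative helicase, had 7.91 to 15.2 CPM early and 4.68 to 6.34 later, and MCM3, of the same helicase, had 59.5 to 75.7 early and 41.3 to 54.1 later. CDK1, the kinase that starts mitosis, had 8.29 to 11.7 CPM early and 3.72 to 5.32 later. PRC1, which bundles microtubules of the midzone, had 25.9 to 35.3 CPM early and 16.4 to 18.7 later, and KIF20A, a kinesin of cytokinesis, had 19.9 to 33.2 early and 9.16 to 15.6 later. DESeq2 called TYMS of the 41 replication genes and CDK1, KIF23 and PRC1 of the 39 mitosis genes, against 0.316% of all genes in this direction.

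Stromal matrix genes had 31 of 32 members below 0, ELN at 0.14 being the exception, with a median of -0.63 that was -1.04 without the 100-day animal 2. Groups overlapped in all 32, while 3.37% of all genes were apart and lower. Without that animal groups overlapped in 27 and the other 5 were lower, against 7.84% of all genes in this direction. The summed level was 23190 and 24440 CPM (d65), 7674 and 14800 (d80), 8667 and 22950 (d100) and 12910 and 9049 (d120). The 65-day animals and the 100-day animal 2 were thus high, and the 80-day animals already lay near the others, so that the split at 80 days is not where the sums separate. COL11A1, a minor fibrillar collagen, had 32.0 and 34.6 CPM (d65), 8.15 and 11 (d80), 5.23 and 10.5 (d100) and 3.33 and 4.58 (d120). MMP14, a membrane-bound matrix protease, had 39.1 and 49.0 (d65), 11.8 and 16.7 (d80) and 3.19 to 14.7 later. COL12A1, MATN2 and COL1A1, 2 further collagens and a matrix adaptor, had log2 fold changes of -1.32 ± 0.41, -1.38 ± 0.44 and -0.56 ± 0.43 (SE), each with groups that overlapped.

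Markers of stellate and smooth muscle cells had 11 of 14 members below 0 with a median of -0.42, and -1.10 without the 100-day animal 2. ACTA2, smooth muscle actin, had 220 and 277 CPM (d65), 66.1 and 145 (d80), 55.7 and 332 (d100) and 42.0 and 40.2 (d120), so that the 100-day animal 2 had the highest level of all. MYL9, a smooth muscle myosin light chain, had 62.6 to 121 CPM early and 51.7 to 67.5 later, with the 100-day animal 2 at 53.5. Endothelial markers had a median of -0.14, and -0.56 without that animal. ESAM, an endothelial adhesion molecule, had 25.4 to 34.1 CPM early and 16.8 to 22.9 later. It was the only 1 of the 16 endothelial markers whose groups did not overlap, against 3.37% of all genes in this direction.

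Growth factor and Wnt lists were mixed in direction. The oncofetal growth list had 11 of 17 members below 0 (median -0.55), the IGF list 10 of 16 (-0.44), the Wnt list 16 of 32 (-0.00) and the Notch list 13 of 21 (-0.23). Without the 100-day animal 2 these were 13 of 17 (-0.53), 13 of 16 (-0.64), 26 of 32 (-0.87) and 14 of 21 (-0.29). MDK and PTN, 2 related heparin-binding growth factors, had 207 to 694 and 473 to 1237 CPM early and 74.1 to 302 and 257 to 702 later, and their groups overlapped. IGFBP2, which binds insulin-like growth factors, had 82.2 to 320 CPM early and 17.0 to 137 later. PAPPA2, a protease that frees such factors, had 0.758 to 1.63 CPM early and 0.172 to 0.417 later, and GHR, the growth hormone receptor, had 8.34 to 15.2 early and 16.8 to 26.8 later, both without overlap. LGR5, a receptor for R-spondins, had 0.564 to 1.71 CPM early and 0.140 to 0.327 later, without overlap, and SFRP2, a secreted Wnt modulator, had 4.17 to 35.4 early and 1.85 to 4.63 later.

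Of the other epithelial lists, duct markers had 7 of 17 members above 0 with a median of -0.28, and 0.04 without the 100-day animal 2. The duct keratins KRT19 and KRT7 had 110 to 361 and 75.3 to 251 CPM early and 64.5 to 148 and 43.1 to 126 later, with overlap. CFTR was the only 1 of the 17 duct markers whose groups did not overlap, against 3.37% of all genes in this direction. Endocrine hormones and granule proteins had 15 of 22 above 0 with a median of 0.38, and none without overlap, against 6.05% of all genes. Their sums were 2517 and 4095 CPM (d65), 13320 and 9464 (d80), 12330 and 2479 (d100) and 6624 and 9135 (d120). SST, somatostatin, had 225 and 352 CPM (d65) and 1049 to 2204 in the later ages and at 80 days, apart from 254 in the 100-day animal 2. GHRL, ghrelin, had 46.3 CPM in 1 animal of 80 days and 0 to 0.760 in the other 7.

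Endocrine transcription factors had 12 of 15 members below 0 with a median of -0.21, and 0.09 without the 100-day animal 2. NEUROG3, the transient factor of endocrine progenitors (chr25:25611427-25612555, Oar_v4.0), had 7.96 and 13.1 CPM (d65), 9.03 and 9.97 (d80), 3.84 and 0.352 (d100) and 0.992 and 1.26 (d120). The early mean was 6.09 times the later one, the groups did not overlap and the log2 fold change was -2.61 ± 0.56 (SE). PAX4, which acts after NEUROG3, had 2.85 to 21.6 CPM early and 3.23 to 14.7 later, with overlap. Acinar transcription factors had 2 of 5 above 0 and a median of -0.08. PTF1A, RBPJL and BHLHA15 of that list had no gene of that name among the 24478. The same held for PDX1 of the endocrine factors and for INS, insulin, of the endocrine hormones.

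Markers of immune cells and adipocytes were found in all 8 libraries, and their sums were highest in the 100-day animal 2. In the 100-day animal 2 the 10 tested T cell markers summed to 322.1 CPM, against 21.2 to 47.14 in the other 7 animals, and 9 of them were highest in that animal. The 9 adipocyte markers summed to 518.7 CPM in it against 33.07 to 47.08, all 9 being highest there. CD3E, of the T cell receptor complex, had 85.2 CPM in it and 0.911 to 4.87 in the others, and ADIPOQ, adiponectin, 276 against 0 to 6.91. Macrophage markers had 10 of 13 above 0 with a median of 0.78, and -0.27 without that animal, interferon and MHC genes 23 of 23 with 0.50 and 0.05, complement and innate defence genes 16 of 23 with 0.78 and 0.05, and B cell markers 5 of 11 with -0.00 and -0.91. Of the macrophage markers 1 of 13, CD163, was higher in all later animals than in any early one, against 2.68% of all genes. Of the interferon and MHC genes the number was 2 of 23, OAS1 and RSAD2. CD163, a macrophage scavenger receptor, had 2.78 to 4.99 CPM early and 5.76 to 14.4 later. RSAD2, an antiviral protein induced by interferon, had 0.181 to 0.549 early and 1.26 to 1.90 later, and ISG15, a ubiquitin-like protein of the same response, had 0.559 to 2.83 early and 2.24 to 9.13 later with overlap.

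**Figure D4:**
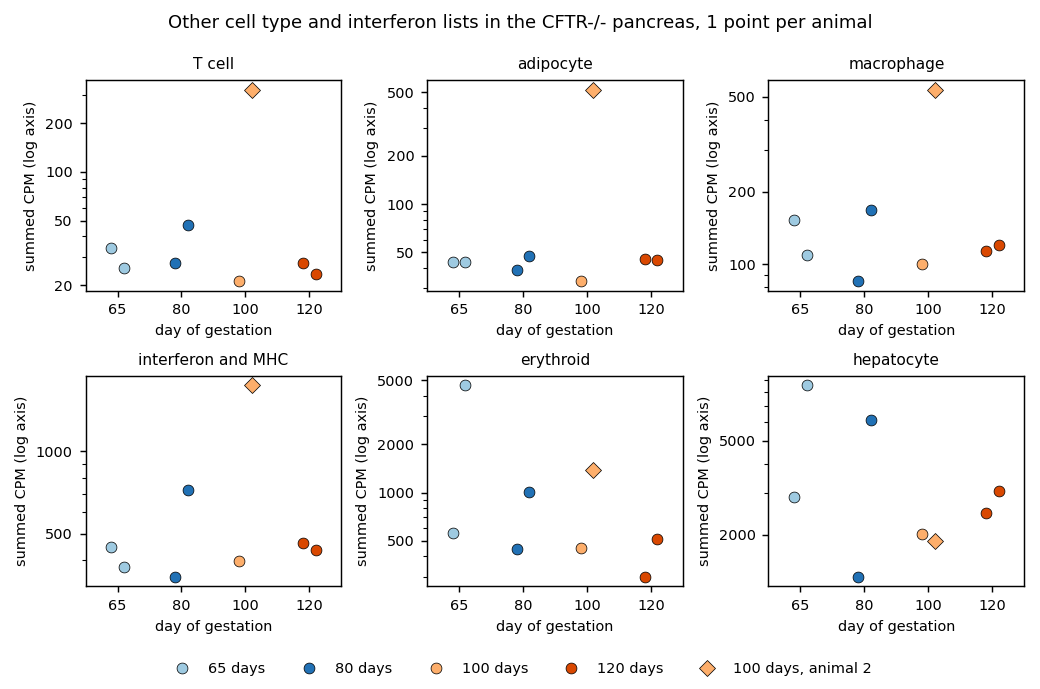
Summed CPM (log axis) of 5 lists of other cell types and of interferon and MHC genes in each CFTR-/- animal against day of gestation. T cell, adipocyte, macrophage and interferon genes were highest in the 100-day animal 2 (diamond, 322.1, 518.7, 535 and 1736 CPM), and erythroid and hepatocyte genes in animal 2 of 65 days (4655 and 8566 CPM).

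Liver markers were high in animal 2 of 65 days and animal 2 of 80 days, and blood markers in animal 2 of 65 days. The 19 hepatocyte markers summed to 2885 and 8566 CPM (d65), 1334 and 6096 (d80) and 1888 to 3060 later, and 15 of them were highest in animal 2 of 65 days. The 11 erythroid markers summed to 558.4 and 4655 CPM (d65), 448 and 1002 (d80) and 299.5 to 1388 later, and 10 were highest in the same animal. FGA, a fibrinogen chain, had 137 CPM in it and 0.589 to 1.53 in the other early animals, against 0 to 0.401 later. HBB, a beta globin, went the other way with 2.19 to 13.1 CPM early and 13.5 to 109 later, in a family whose members can share reads. The part of these animals' other-cell RNA in the results above was not tested, beyond the values without the 100-day animal 2.

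Schwann cell markers, of the glia of peripheral nerves, had 11 of 14 members below 0 with a median of -0.37, and 10 of 14 with -0.46 without the 100-day animal 2. In none of them were the groups apart with 8 libraries, against 6.05% of all genes. Heat shock genes had 17 of 21 members above 0 with a median of 0.27, or 0.30 without that animal. Among the other lists, the median was 0.14 for nuclear oxidative phosphorylation genes, -0.08 for hypoxia genes, 0.01 for immediate early genes, -0.18 for neuron markers, 0.11 for enterocyte markers, 0.55 for skeletal muscle markers, -1.16 for mesothelium markers and -0.14 for adrenal cortex markers. The last 4 lists had 4 to 7 tested members each.

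Whether the change with stage differed from that of WT fetuses was tested as an interaction over 16 libraries. Of 18445 genes tested, 0 (0.0%) passed, with a smallest adjusted p of 0.476, and 769 (4.17%) stood at an unadjusted p under 0.05. DESeq2 called 4 genes (0.0217%), namely HS6ST2, APOC3, FABP1 and LOC105604729. Its log2 difference for FABP1 was -32.4 ± 5.14 (SE), which is too large to be read as a measured fold change. For APOC3, 1 WT animal of 100 days had 144 CPM and the other 7 WT libraries 0 to 2.87, beside the 2 early CFTR-/- animals that were high in it, and the call without these libraries was not tested. In WT fetuses 1405 of the 17387 genes (8.08%) had later and early libraries that did not overlap, 682 (3.92%) higher and 723 (4.16%) lower, and 1817 (10.5%) had an unadjusted p under 0.05, with 0 (0.0%) called. The groups were apart in the same direction in both genotypes for 208 genes, 91 higher and 117 lower, which is 19.8% of the 1052 genes of CFTR-/- and 14.8% of the 1405 of WT, and in opposite directions for 9. The log2 fold changes of the genotypes had a Pearson r of 0.372 over the tested genes, which are no independent replicates, and 64.5% had the same sign.

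**Figure D5:**
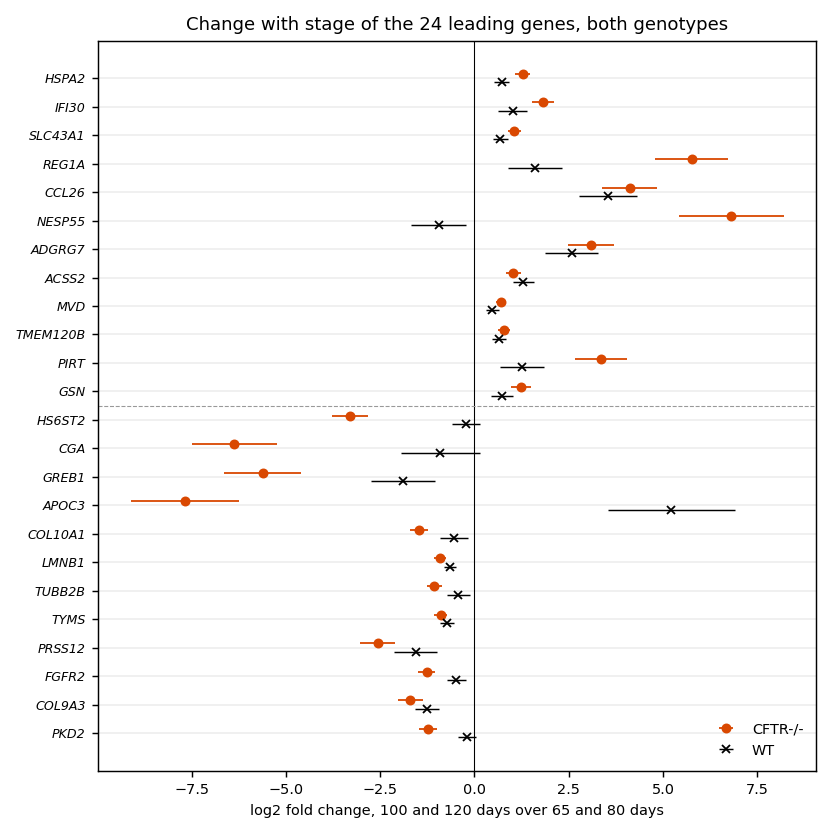
Log2 fold change, later over early, of the 24 leading genes in CFTR-/- (orange circles, 8 libraries) and in WT (black crosses, fit of 16 libraries), with bars of 1 SE. The WT change had the same sign in 22 of 24 genes, and NESP55 and APOC3 were the exceptions.

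Of the 24 leading genes, 11 of 12 in each direction had the same sign in WT. In each direction 4 of 12 had WT groups apart in the same direction, against 3.92% of all genes for higher and 4.16% for lower. The leading genes were chosen for CFTR-/- groups that do not overlap, and of all such genes 19.8% were apart the same way in WT. HS6ST2 had 2.71 to 4.38 CPM in early and 1.76 to 5.16 in later WT libraries, a log2 fold change of -0.22 ± 0.36 (SE), and a difference between genotypes of -3.08 ± 0.59 with an adjusted p of 0.540 in the quasi-likelihood test and of 0.00178 in DESeq2. REG1A was 12.6 to 49.9 CPM early and 59.6 to 113 later in WT, while the CFTR-/- animals of 120 days had 925 and 1044. Its difference between genotypes was 4.16 ± 1.03 (SE), with an adjusted p of 0.985 in the quasi-likelihood test. For PKD2 and FGFR2 that difference was -1.03 ± 0.33 and -0.79 ± 0.35, and neither passed that test. NESP55 had 30.8 to 54.3 CPM in early and 7.85 to 36.7 in later WT libraries. The early CFTR-/- animals, at 0 to 0.491 CPM, and those of 120 days, at 3.23 and 0.771, lay below all of these. Those of 100 days, at 16.1 and 34.7, lay within the later WT range. The difference between genotypes for NESP55 was 7.75 ± 1.42 (SE), with an adjusted p of 0.476 in the quasi-likelihood test. NEUROG3 was lower at the later stage in both genotypes, with a WT change of -3.26 ± 0.64 (SE), whereas PAX4 was 14.4 to 28.4 CPM early and 0.558 to 4.28 later in WT, without overlap.

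The lists gave the same order of secretory and proliferation genes in WT, with medians of 1.59 for acinar enzymes, 0.38 for the unfolded protein response, 0.33 for ER translocation, 0.16 for the cytosolic ribosome, -0.26 for DNA replication, -0.37 for mitosis and -0.26 for stromal matrix. Endocrine genes had a WT median of -0.84 against 0.38 in CFTR-/-, and 4 of 22 members, SCG3, PCSK1N, RESP18 and GIP, had an interaction at an unadjusted p under 0.05, against 4.17% of all genes. Erythroid genes had a WT median of 1.96 against -2.64, with 10 of 11 members at that level. The erythroid sums were 364.3 to 753.5 CPM in 7 WT libraries and 4593 in animal 2 of 120 days, which also had the highest T cell (234.7 CPM) and adipocyte (461.9 CPM) sums of the WT libraries. The part of that WT library and of animal 2 of 65 days in the difference was not tested.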

How the data were processed

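Bulk RNA-seq of 8 CFTR-/- pancreas libraries (65 to 120 days) and 8 WT libraries of the same ages was analysed, grouped by genotype and age from their titles. The authors primed cDNA with oligo-dT, sequenced paired ends, aligned reads with STAR (version 2.6 in the processing notes) to Oar_v4.0 and counted them per gene with featureCounts 1.6.3 of Subread. The deposited values are raw whole-number counts of reads per gene. The strand setting of the counting is not given in the sources used here, so genes that overlap or lie antisense to another cannot be told apart with certainty.

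Genes were kept by filterByExpr on the stage (minimum count 10, minimum total 15), scaled by TMM, and tested with glmQLFit (legacy off) and glmQLFTest of edgeR 4.0.16 in R 4.3.3, with 2 stages in the model. Genes with a p of 0.01 or less after Benjamini-Hochberg adjustment and a log2 fold change of 0.58 or more in size were called, with SEs as the absolute change over the square root of F. The interaction was fitted to the 16 libraries. DESeq2 1.42.0, limma 3.58.1 and the other alternatives are given at the end. DESeq2 gave no adjusted p to 1300 of the 17387 genes, which were counted as not called. The scripts were tested on simulated counts. With 4 against 4 libraries an exact permutation test of a single value cannot go below p = 0.0286. Total counts bound precision, and they cover counting error only.

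The comparison, gene lists and rule for named genes were chosen with earlier results of these data known. Named are, among genes with a symbol, a mean of at least 1 CPM and groups that do not overlap, the 12 with the smallest p per direction; the 3 members of each list with the smallest p, of which some are left out here; and genes that the study names. DERL3, KIF23, PLA2G1B, the other members named only as the extremes, exceptions or few of a count, and the genes of the closing observations were picked with their values in view. Of 8432 locus numbers, 620 were given names, 501 from RefSeq, 70 from the study's tables of clusters and 49 by matching CPM.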

Additional observations from a re-analysis of the deposited data

Results flagged for a closer look

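Within the 4 early or the 4 later CFTR-/- libraries, 21 of 210 sets of values examined had 1 library far from the other 3 by Dixon's test at the 95% level. Chance flags about 1 set in 20, and values of 1 library are not independent of one another. The 100-day animal 2 accounted for 8, the 65-day animal 2 for 2 and other libraries for 11. No explanation was tested.

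The 100-day animal 2 had a total count of 35973948 (3.6e+07), a first principal component of -199 against 27 to 64.8 and a median correlation of 0.844 against 0.93 to 0.942. Its ACTA2, smooth muscle actin, was 332 CPM against 40.2 to 55.7, its CD3E 85.2 against 0.911 to 1.59 and its ADIPOQ 276 against 0 to 6.91. Its T cell sum was 322 CPM against 21.2 to 27.4, and its adipocyte sum 519 against 33.1 to 45.3. The 65-day animal 2 had 137 CPM of FGA against 0.589 to 1.53 and an erythroid sum of 4660 CPM against 448 to 1000 in the other early animals.

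Animal 1 of 80 days had 35 CPM of CFTR against 49.7 to 50.7, and higher values of the zymogen granule lectin ZG16 (11 against 4.11 to 5.22), of the chymotrypsinogen CTRB1 (35.8 against 10.3 to 11.5), of KLF9 (7 against 2.5 to 2.77) and of HSD11B1 (3.03 against 1.42 to 1.59). Animal 2 of 80 days had 46.3 CPM of ghrelin, GHRL, against 0.66 to 0.76, and 4.87 of CD3E against 1.3 to 1.78. Animal 1 of 100 days had 14.7 CPM of PAX4 against 3.23 to 4.53 and 0.21 of GREB1 against 0 in the other later animals. NESP55 was 0.491 CPM in animal 1 of 65 days and 0 in the other early animals, and MYL9 was 67.5 CPM in animal 2 of 120 days against 51.7 to 53.5.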

How the results depend on the processing

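With 8 libraries the count of called genes was 0 under DESeq2 size factors in edgeR, no filter, filtering by age, voom, glmTreat, legacy quasi-likelihood, an adjusted p of 0.05, age means and the replicate block, 103 under the DESeq2 Wald test, 47 under the likelihood ratio test and 530 at an unadjusted p of 0.01. Same-numbered libraries had deviations that correlated at -0.196 to 0.398, so that they share only a number, and the fit with the replicate block called 0 genes (smallest adjusted p 0.345; 1805 with an unadjusted p under 0.05). Leaving out 1 library gave 0 to 1 calls, the 1 being DERL3 without the 100-day animal 2. Without the 80-day libraries 1 gene was called, CGA, and without the 100-day libraries 4, namely PIRT, DERL3, ZG16 and REG1A; without those of 65 or of 120 days the count was 0. As alternatives chosen after seeing the data, the 1052 genes without overlap and the 530 at an unadjusted p of at most 0.01 with the fold limit were 3119 and 1444 without the 100-day animal 2. The interaction had 0 calls under every edgeR alternative run and 4 under the DESeq2 Wald test, and its replicate block gave 0 with 713 genes under an unadjusted p of 0.05.

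Of 2250 gene values, 90 genes under 25 alternatives each, 2101 kept their direction uncalled, 141 were called and 8 reversed. Called here means by the limit of each alternative, which for some was an unadjusted p of 0.01 or an adjusted p of 0.05 with the fold limit. The 141 thus include genes that never passed an adjusted p of 0.01. The log2 fold change of COL1A1 was 0.11 without 65 days. That of ACTA2 was 0.15 without 65 days and 0.09 without 120 days. That of PAX4 was 0.05 without 80 days and ran from -1.41 to 0.01 with 1 library left out, and that of CD3E was -0.65 under voom with quality weights, -0.92 without 100 days and -0.92 to 3.77 with 1 library left out. Without the 100-day animal 2 these list medians changed sign, to 0.08 for acinar and 0.09 for endocrine transcription factors, 0.04 for duct, -0.27 for macrophage, -1.26 for T cell, -0.11 for skeletal muscle, 0.07 for adrenal cortex and -0.31 for immediate early genes, and that of the glucocorticoid list went from 0.06 to -0.00; the cause was not tested.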

Other observations

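Some genes on no list were picked for their values, which stand here as a description. CYM, the milk-clotting protease chymosin of the young ruminant stomach, had 0 reads in all 4 early libraries and 0.878 and 21.2 CPM (d100) and 7.42 and 34.6 (d120). Against a floor of 3 counts per library (0.0413 CPM) its later mean was at least 388-fold higher. It passed the filter on low counts only through the later libraries, and its adjusted p in the quasi-likelihood test of edgeR was 0.251. In WT animals CYM had 0 to 0.139 CPM early and 0.279 to 1.85 later. CES1, a carboxylesterase with close copies that can share its reads, had 4.43 to 23.4 CPM early and 28.3 to 147 later. CLDN2, a claudin that forms cation channels at tight junctions, had 2.13 to 13.2 CPM early and 5.48 to 100 later, with overlap. LPL, lipoprotein lipase, had 0.73 to 1.02 early and 1.49 to 13.1 later, the highest being the 100-day animal 2, and its log2 fold change was 2.64, or 1.75 without it.

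Among genes that were lower, several act outside cells or in cell state. THBS1, thrombospondin 1, had 10.7 to 66.9 CPM early and 5.21 to 8.35 later, with a log2 fold change of -2.43 ± 0.49 (SE) against -0.14 in WT. CHRD, the BMP inhibitor chordin, had 6.6 to 12.8 CPM early and 2.45 to 5.08 later, a change of -1.42 against 0.22 in WT. For THBS1 and CHRD alike, the difference between genotypes had an adjusted p of 0.985 in the quasi-likelihood test. SNAI1, a repressor of epithelial genes, had 2.04 to 5.8 CPM early and 0.864 to 1.33 later, SOSTDC1, a BMP and Wnt inhibitor, had 2.39 to 5.61 and 0.176 to 1.22, and PLOD2, a collagen lysyl hydroxylase, had 17.6 to 31.3 and 11.1 to 14.2.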
